A study of Mus musculus with 12 samples.

Results

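The deposited RNA table is of mouse embryonic stem cells differentiated toward cardiomyocytes. In it, 188 of 23427 rows had no value in either library of the Hey1 line and at least 3 reads per kilobase of gene and per M mapped reads (RPKM) in both libraries of the Hey2 line. These 188 rows, called members here, were 140 protein-coding genes, 18 long non-coding RNA genes, 13 snoRNA genes, 12 miRNA genes, 3 transcribed pseudogenes, 1 other pseudogene and 1 row without a RefSeq entry. Before names were considered 198 rows met both conditions, and 10 of them were left out by name: 1 potassium channel gene, 3 solute carrier genes and 6 streak, signalling or interferon genes that the rule names. Names starting with Mir and Snor were to be left out as well, but the rule reads the deposited names, and the table gives no name for any of the 25 miRNA and snoRNA rows. These stay in as members through their empty name field, and counts that turn on them are also given without them. The members were chosen by these blanks and by their levels in the Hey2 line, so both are given as a description. The other rows with at least 3 RPKM in both Hey2-line libraries mostly had Hey1-line values: 8118 of 8404 were listed in both Hey1-line libraries, and 2.36% were blank in both. The reverse pattern, at least 3 RPKM in both Hey1-line libraries and no value in the Hey2 line, was found in 19 rows.

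Hey1 and Hey2 are basic helix-loop-helix repressors that act downstream of Notch receptors and are known for their part in heart chamber and valve development. The cells were differentiated in vitro from mouse embryonic stem cells (CM7/1) toward cardiomyocytes, in a line with inducible Hey1 and a line with inducible Hey2. Each line gave 1 untreated library and 1 library from cells given 1000 ng/ml doxycycline for 48 h, so the 4 groups hold 1 library each and no difference below has a replicate check. Both untreated groups carry the inducible construct, and a line given doxycycline without a Hey gene is not among the RNA libraries, so doxycycline and the induced Hey gene cannot be told apart. The 8 chromatin samples of the series were not analysed here.

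The induced genes followed the labels. Hey2 was blank in the untreated Hey2 line and 6.59 RPKM after doxycycline, against 0.694 and 0.895 RPKM in the untreated and treated Hey1 line. Hey1 was 0.735 RPKM in the untreated Hey1 line, 8.59 RPKM in the treated Hey1 line, and 1.18 and 0.481 RPKM in the Hey2 line. The lines differed in cell type markers before any induction, so a member need not be a gene of cardiomyocytes. The 10 cardiomyocyte markers, which include Myh6, Tnnt2 and Nkx2-5, were listed in every library, but summed to 18909 and 19767 RPKM in the Hey1 line and to 1133 and 1172 RPKM in the Hey2 line. The 5 pluripotency markers in the table, among them Pou5f1, Nanog and Sox2, summed to 27.8 and 20.9 RPKM in the Hey1 line and to 208 and 211 RPKM in the Hey2 line. The 3 epithelial markers Cdh1, Krt8 and Krt18 summed to 20 and 18.1 against 229 and 295 RPKM. The 4 blood and endothelial markers, of which Gata1 was blank in every library, summed to 2 and 2.06 RPKM in the Hey1 line and 5.16 and 5.12 RPKM in the Hey2 line. The 4 neural markers summed to 22.7 and 24.4 against 22.9 and 21.2 RPKM, with Sox1 and Pax6 blank in the Hey1 line, Nes higher in the Hey2 line and Tubb3 higher in the Hey1 line. In such bulk libraries, fewer cells of a type and less RNA per cell cannot be told apart, and the part of the marker levels in the members' pattern was not tested.

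A blank is not a 0. Converting RPKM values back to whole reads gave divisors of 7.4 and 7.5 M reads for the untreated and treated Hey1-line libraries and of 5.75 and 10.375 M for the Hey2-line libraries. Over 11682 rows listed in all 4 libraries, reads began sharply at 10 in the Hey1 line and at 5 in the Hey2 line: in the untreated Hey1 library 51 rows had 10 reads and 7 had 9, and in the untreated Hey2 library 61 had 5 reads and 7 had 4. The 2 lines were therefore listed to different depths, and a blank in the Hey1 line is read here as fewer than 10 reads. For a member this limit in RPKM depends on its length. Among the 163 members that are not miRNA or snoRNA genes the limit had a median of 1.03 RPKM in the untreated Hey1 library, and the median member was at least 5.79-fold above it untreated and at least 5.35-fold above it in the treated pair. Among the 25 miRNA and snoRNA genes the limit had a median of 17.8 RPKM, and their median was 1.16-fold the limit untreated and 0.723-fold treated.

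Counted over all members, 168 lay above the Hey1-line limit in both the untreated and the treated pair, 149 at least 2-fold, 85 at least 5-fold, 38 at least 10-fold and 3 at least 50-fold. At the recovered lengths, the other 20 members, 17 of them miRNA or snoRNA genes, were under the limit in at least 1 pair. A gene at the same level in that Hey1-line library could also be blank. For 11 of the 20, all miRNA or snoRNA genes, this held in both pairs, and their blanks show no difference between the lines. The other 9 were under the limit in the treated pair alone and above it untreated, such as Snord22, which was at least 3.99-fold above the untreated limit.

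**Figure D1:**
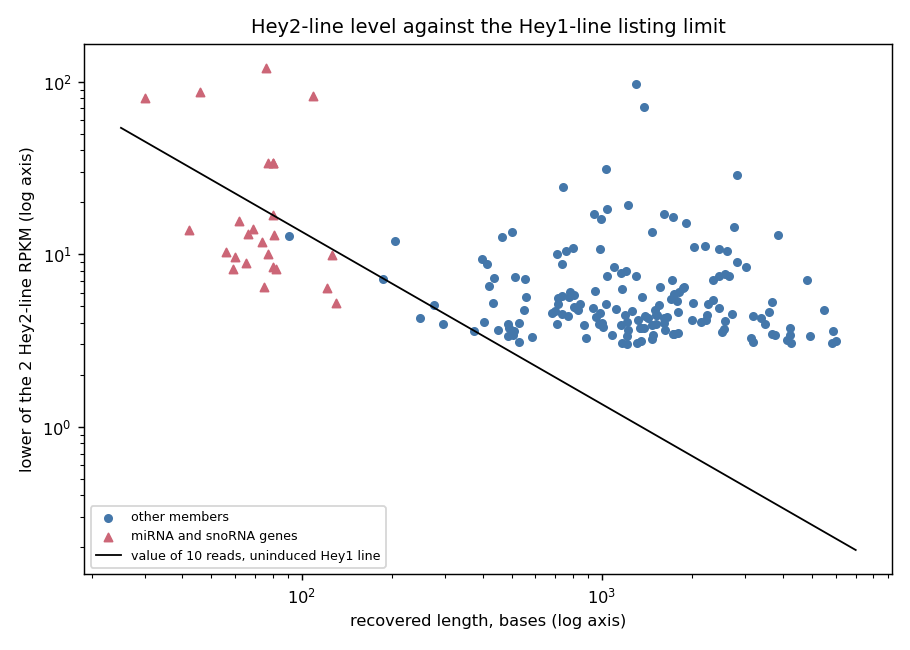
Lower of the 2 Hey2-line RPKM values of each member against its recovered length in bases, both on log axes; the line is the RPKM of 10 reads in the untreated Hey1-line library. Points are members, with triangles for miRNA and snoRNA genes. Most triangles sit at or under the line, and nearly all members longer than 300 bases sit above it.

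The 3 members at least 50-fold above the limit were Car4, Trh and Gbp1. Car4, a carbonic anhydrase anchored to the cell membrane, had 106 RPKM untreated and 97.3 RPKM treated in the Hey2 line, at least 102-fold and 94.9-fold above the Hey1-line limit. Trh, the precursor of thyrotropin-releasing hormone, had 71.4 and 73.6 RPKM, at least 73.1-fold and 76.4-fold above the limit. Gbp1, an interferon-inducible guanylate-binding protein that RefSeq names Gbp2b, had 28.9 and 42.5 RPKM, at least 60.2-fold and 89.9-fold above it. Car4 and Trh were at nearly the same level in both Hey2-line libraries and Gbp1 was higher in the treated one.

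At the threshold of 3 RPKM the choice of members rests on small differences. The antioxidant enzyme gene Gpx7 was just inside with 3.01 and 3.10 RPKM, followed by 2600005O03Rik (RefSeq Dscc1) with 3.06 and 3.53 RPKM and by Gbp6 with 3.06 and 5.18 RPKM. Just outside were Ell3 with 3.32 and 2.99 RPKM, Hs3st1 with 2.99 and 4.23 RPKM, and Rtp4, an interferon-inducible gene, with 2.99 and 5.76 RPKM.

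Most members stayed within 1.5-fold between the 2 Hey2-line libraries, where doxycycline and the induced Hey2 cannot be told apart. Between the untreated and the treated Hey2-line library the ratio of RPKM was at least 1.5 in 8 members, at most its inverse in 21, and between these limits in 159. Without the 25 miRNA and snoRNA genes the counts were 8 higher and 11 lower, since 10 of the 21 lower members are such genes. With rows that lack a deposited name also excluded by RefSeq symbol, 11 were lower. Over all 8404 rows with at least 3 RPKM in both libraries, 0.762% were at least 1.5-fold higher and 1.21% at least 1.5-fold lower. The members held fewer reads than that background, with medians of 38.5 and 65.5 reads against 134 and 241, and ratios from fewer reads scatter more. Rows that were listed in both lines and had from 25.5 to 78.5 untreated reads were therefore also counted: 1.22% of 1883 were at least 1.5-fold higher and 2.02% at least 1.5-fold lower. In the same range of reads 3 of 81 members other than miRNA and snoRNA genes were higher and 6 lower. These few members are again larger shares than in the 1883 rows, a difference with no test. Another comparison set of 6454 rows listed in both lines with a mean under 20 RPKM, gave 0.728% and 1.04%. The median log2 ratio was -0.08 over the members and -0.01 over all 8404 rows. Of the members 78 were higher and 110 lower after induction, in any amount, against 4040 and 4361 of the 8404 rows.

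The same ratio was also read against an exact 95% interval of counting error from the recovered reads, which holds no variation between cultures. The interval lay above 1 in 9 members and below 1 in 15, against 7.94% and 6.68% of 8400 background rows and 7.19% and 4.36% of the rows with a mean under 20 RPKM. Both a 1.5-fold ratio and an interval off 1 were found in 6 members that were higher and 9 that were lower, against 0.607% and 0.881% of the 8400 rows, 0.573% and 0.806% of the rows with a mean under 20 RPKM, and 1.17% and 1.59% of the 1883 rows in the read-matched range. Within that range 2 of the 81 members were higher and 6 lower by both criteria. The 6 higher members were Gbp3, Gbp6, Sfn, Alox15, Pdlim2 and 1190005I06Rik. The 9 lower members were Fst, Wnt8a, Ramp2, Ramp3, Eras, Mir703, Snord22, D7Ertd143e and 2010204K13Rik. These lists rest on the fewest possible reads, and more members of both directions would pass at multiples of them. Both libraries also chose the members, since each had to reach 3 RPKM.

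**Figure D2:**
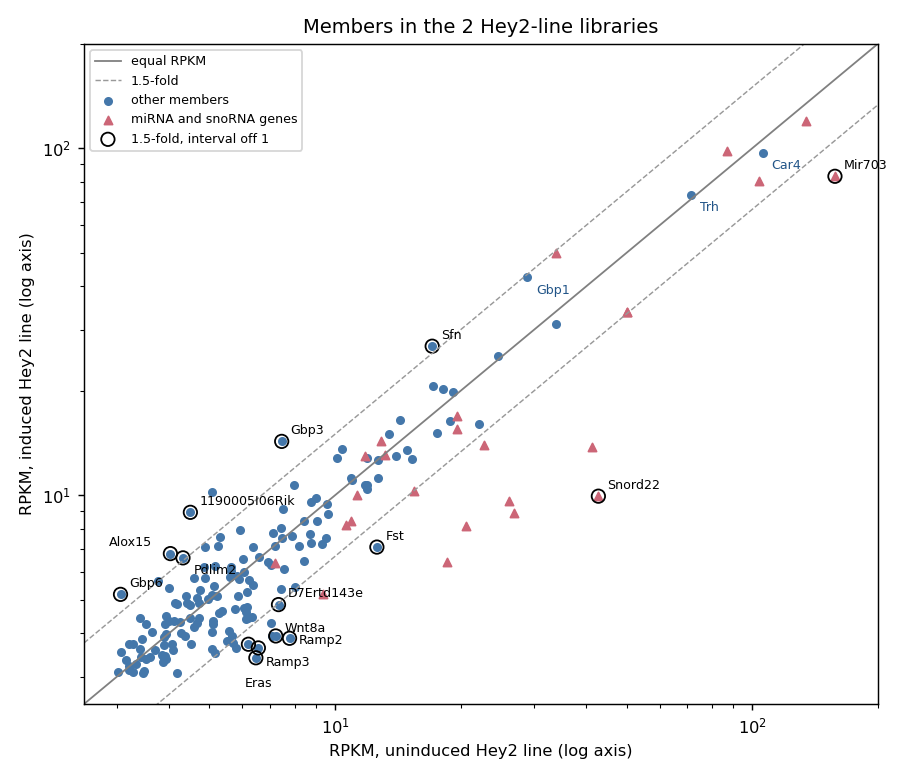
RPKM of the 188 members in the untreated (x) and the treated (y) Hey2-line library, both on log axes, with the line of equal values and dashed lines at 1.5-fold. Rings mark the 15 members past 1.5-fold whose counting interval leaves out 1, and all but 1 of them are named. Most members lie between the dashed lines, and Gbp3, Sfn and 1190005I06Rik lie above while Fst, Snord22 and Mir703 lie below.

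Members were sorted by function into groups after their values were seen, so the counts by group describe and do not test. The group medians of the log2 ratio were 0.11 for 17 epithelial genes, 0.02 for 15 interferon-inducible genes, 0.01 for 12 other immune-cell and inflammation genes, -0.06 for 24 pluripotency and germ cell genes, and -0.06 for 16 enzyme and transport genes. They were -0.17 for 22 patterning and signalling genes, -0.23 for 18 long non-coding RNA genes and pseudogenes and -0.38 for the 25 small RNA genes. The 39 members left ungrouped had a median of -0.02.

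**Figure D3:**
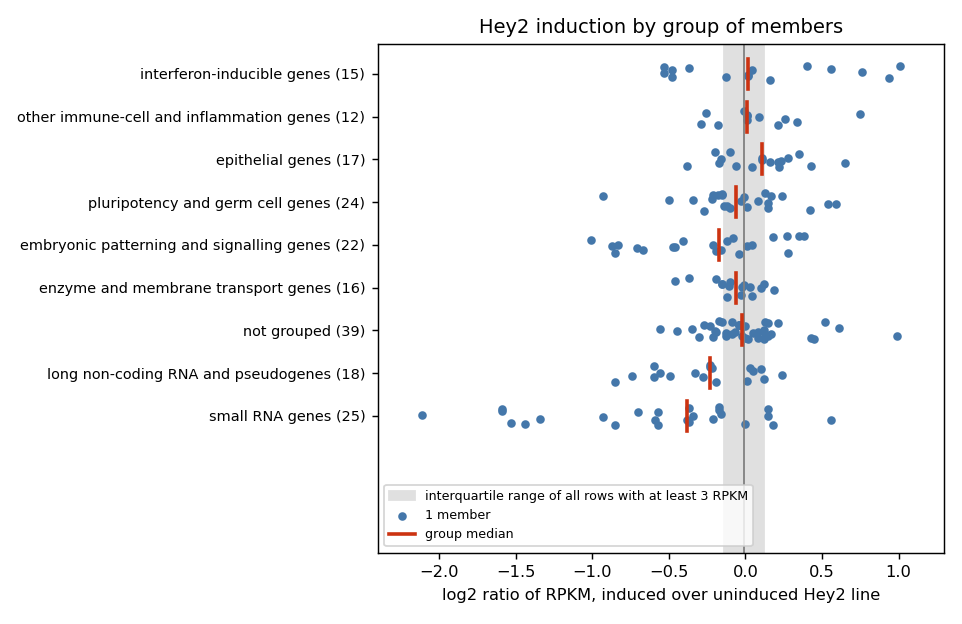
Log2 ratio of RPKM, treated over untreated Hey2 line, for each member (points), by functional group with its number of members; red bars are group medians and the grey band is the interquartile range of all 8404 rows with at least 3 RPKM, -0.14 to 0.12. The interferon-inducible group is spread on both sides of 0, and the small RNA genes reach from -2.11 to 0.56.

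Interferons switch on guanylate-binding proteins, immunoproteasome subunits, chemokines and antigen-presenting molecules through STAT and IRF factors. The guanylate-binding proteins are large GTPases that attack intracellular pathogens, and in these libraries their 3 members were higher after Hey2 induction. Gbp3 had 7.45 RPKM untreated and 14.3 RPKM treated, from 113 and 392 reads, giving a ratio of 1.92 with an interval of 1.56 to 2.39. Gbp6, which RefSeq names Gbp7, had 3.06 and 5.18 RPKM from 103 and 314 reads, giving a ratio of 1.69 with an interval of 1.35 to 2.13. Gbp1 had 28.9 and 42.5 RPKM from 468 and 1243 reads, giving a ratio of 1.47 with an interval of 1.32 to 1.64. Each of the 3 was higher in the treated library and none was listed in the Hey1 line. They are neighbours on chromosome 3 in RefSeq order, with at most 1 gene between each pair, and their sequences are alike enough that reads may be shared among them. Gbp2, which is no member because it had 0.605 RPKM in the untreated Hey1 library, went from 27.3 to 44.8 RPKM with a ratio of 1.64. Over the 10 guanylate-binding protein genes listed in both Hey2-line libraries, 7 were higher and 3 lower, and the intervals of 5 lay above 1. Of all 14053 rows listed in both, 6720 were higher and 7329 lower, and 891 of 14043 intervals lay above 1. Gbp4, at 1.55 and 1.52 RPKM, had a ratio of 0.980.

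The remaining interferon-inducible members had ratios from 0.693 to 2.01, and their difference from the guanylate-binding proteins was not tested. Cxcl10, a chemokine that draws T cells, had 5.06 and 10.2 RPKM, from as few as 8 and 29 reads. Its ratio of 2.01 was the highest of all 8404 rows, but its interval ran from 0.896 to 5.09; if the true reads are 2 times these, which the files do not settle, it runs from 1.14 to 3.74. Isg15, a ubiquitin-like modifier, had 10.4 and 13.6 RPKM with a ratio of 1.32 and an interval of 0.922 to 1.91. Ifitm1, a membrane protein that restricts virus entry, had 18.2 and 20.3 RPKM with a ratio of 1.11 and an interval of 0.881 to 1.41. At the fewest possible reads, these 3 were nominally higher with intervals that hold 1. The immunoproteasome subunits Psmb8, at 19 and 20 RPKM, and Psmb9, at 4.96 and 5.02 RPKM, had ratios of 1.03 and 1.01. The immunity-related GTPase gene Igtp had 11 and 11.1 RPKM and a ratio of 1.01. Psmb8, Psmb9 and Igtp were level between the libraries. The class I histocompatibility genes H2-Q6, H2-Q7, H2-Q8 and H2-Q9 had 5.50 to 6.17 RPKM untreated and 3.81 to 4.44 RPKM treated, with ratios of 0.693 to 0.718 and intervals that hold 1. The 4 H2-Q genes are near-identical copies among which reads can be split, so their 4 ratios are not separate observations.

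Set against a list of interferon-response genes, 25 rows were listed in both Hey2-line libraries, of which 22 were higher and 3 lower, and the intervals of 9 lay above 1 and of 0 below 1. Over all 14053 rows listed in both Hey2-line libraries, 6720 were higher and 7329 lower. Of 14043 intervals among them, 891 lay above 1 and 768 below, and the difference from the list was not tested. The 5 members on the list were all nominally higher, with a median log2 ratio of 0.16 and 1 interval above 1, that of Gbp3. The 20 rows that are no members had a median of 0.57. Some of these rows were also blank in both Hey1-line libraries. Rtp4, for example, missed the 3 RPKM threshold and Oasl2 was left out by name. Lgals3bp, at 2.33 and 5.07 RPKM in the Hey2 line and 1.68 and 1.23 RPKM in the Hey1 line, and Ifitm3, at 26.3 and 38.2 against 4.17 and 2.47 RPKM, show that the higher values after induction were not limited to genes blank in the Hey1 line.

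**Figure D4:**
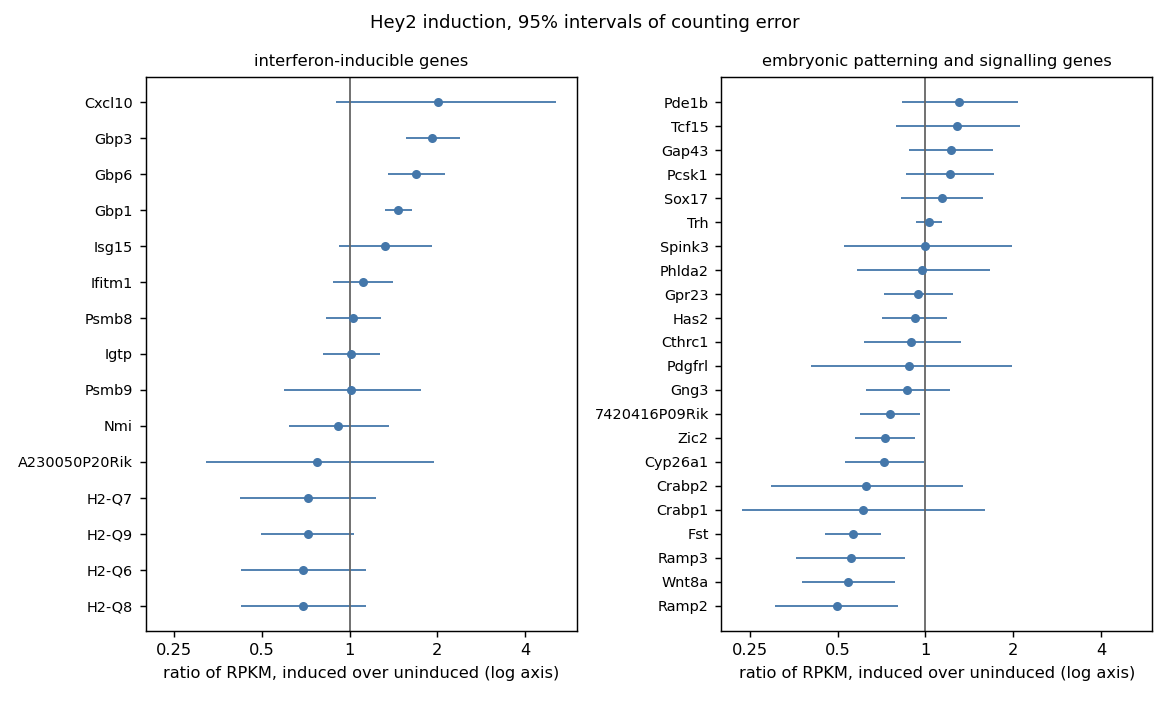
Ratio of RPKM, treated over untreated Hey2 line, on a log axis for the 15 interferon-inducible members (left) and the 22 patterning and signalling members (right); bars are exact 95% intervals of counting error from the fewest possible reads. Gbp3, Gbp6 and Gbp1 lie above 1 with their whole interval, and Ramp2, Wnt8a, Ramp3 and Fst lie below 1 with theirs.

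The promoter windows of the interferon-inducible members are shown because a motif of this response occurs in them. RefSeq windows of 250 bases before to 50 bases after a gene's start (GRCm38.p6) were found for 112 members, with 141 windows. The core of the interferon-stimulated response element, GAAA followed after any 2 bases by GAAA, searched on both strands, was in 3.44% of 32851 windows of all genes, in 7.80% of the member windows and in 46.2% of the 13 windows of interferon-inducible members. The motif and the group were both picked after the values were seen. It was found in 6 of 12 interferon-inducible members with a window: Gbp1, Gbp3, Gbp6, Cxcl10, Isg15 and Igtp. The first 5 had ratios of 1.32 or more, and Igtp was level. At the fewest possible reads, the intervals of Cxcl10 and Isg15 hold 1. Outside this group the motif was also in windows of the members Cldn7, 1700008F21Rik, Srgn, Pcsk1 and Pde1b. Their ratios lay on both sides of 1, with intervals that hold 1. A link between the motif and the ratios was not tested. Capitals mark every match, of either strand, and the sequences run 5′ to 3′ on the gene's own strand.
Gbp1 promoter, chr3:142594597-142594896, plus strand: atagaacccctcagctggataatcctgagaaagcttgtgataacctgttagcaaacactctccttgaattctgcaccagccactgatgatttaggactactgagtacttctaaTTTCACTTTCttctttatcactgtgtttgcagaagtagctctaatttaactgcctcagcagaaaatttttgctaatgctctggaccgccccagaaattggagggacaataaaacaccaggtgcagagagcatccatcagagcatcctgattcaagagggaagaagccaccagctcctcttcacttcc
Gbp3 promoter, chr3:142559794-142560093, plus strand: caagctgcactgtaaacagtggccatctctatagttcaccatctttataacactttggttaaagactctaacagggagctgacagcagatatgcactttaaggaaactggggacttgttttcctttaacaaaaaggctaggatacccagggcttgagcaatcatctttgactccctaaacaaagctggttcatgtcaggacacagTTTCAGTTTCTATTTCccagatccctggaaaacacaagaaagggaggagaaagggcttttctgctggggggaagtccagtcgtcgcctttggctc
Gbp6 promoter, chr3:142530086-142530385, plus strand: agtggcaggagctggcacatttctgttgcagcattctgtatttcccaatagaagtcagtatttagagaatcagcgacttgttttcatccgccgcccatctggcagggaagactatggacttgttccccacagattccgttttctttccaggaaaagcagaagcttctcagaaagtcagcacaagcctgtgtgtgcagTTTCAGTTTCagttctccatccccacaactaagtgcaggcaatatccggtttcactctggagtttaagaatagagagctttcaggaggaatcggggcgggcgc
Cxcl10 promoter, chr5:92348840-92349139, minus strand: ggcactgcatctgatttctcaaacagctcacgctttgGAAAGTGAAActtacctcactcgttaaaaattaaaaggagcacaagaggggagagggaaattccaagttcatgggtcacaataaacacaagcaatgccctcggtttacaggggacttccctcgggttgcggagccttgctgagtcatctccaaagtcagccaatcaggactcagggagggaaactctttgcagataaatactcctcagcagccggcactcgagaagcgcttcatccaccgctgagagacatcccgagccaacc
Isg15 promoter, chr4:156200769-156201068, minus strand: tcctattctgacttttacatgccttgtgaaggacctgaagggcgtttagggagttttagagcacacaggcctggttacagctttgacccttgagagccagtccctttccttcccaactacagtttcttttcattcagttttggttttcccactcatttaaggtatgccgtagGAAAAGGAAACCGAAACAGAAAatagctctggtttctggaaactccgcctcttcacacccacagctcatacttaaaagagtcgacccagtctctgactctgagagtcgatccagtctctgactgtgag
Igtp promoter, chr11:58199306-58199605, plus strand: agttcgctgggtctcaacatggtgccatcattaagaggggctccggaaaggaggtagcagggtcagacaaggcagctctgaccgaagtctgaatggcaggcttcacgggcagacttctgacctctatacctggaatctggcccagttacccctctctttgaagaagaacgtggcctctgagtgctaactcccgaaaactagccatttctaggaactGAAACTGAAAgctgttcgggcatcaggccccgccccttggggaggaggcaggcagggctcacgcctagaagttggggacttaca
The first match begins 137 bases before the start in Gbp1, 45 in Gbp3, 53 in Gbp6, 213 in Cxcl10, 78 in Isg15 and 34 in Igtp. In Gbp3 2 matches and in Isg15 3 matches overlap, which makes their runs of capitals longer. TTCNNNGAA, the core of a STAT binding element, which reads the same on both strands, was in 8.30% of all windows, 8.51% of member windows and 23.1% of the windows of interferon-inducible members. The E-box CACGTG, which reads the same on both strands and which Hey proteins are known to bind, was in 7.15% of all windows and 6.38% of member windows. The related CACGCG, searched on both strands, was in 9.27% and 9.22%. None of the 13 windows of interferon-inducible members held either of the Hey motifs. A match is a stretch of letters and no measured site.

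Of the 12 other immune-cell and inflammation genes, 8 were higher, 4 lower and 1 passed both criteria. That gene was Alox15, a lipoxygenase that makes lipid mediators, with 4.03 and 6.79 RPKM, a ratio of 1.68 and an interval of 1.09 to 2.68. The most abundant of the group were Srgn, the core protein of a secretory granule proteoglycan, with 17.2 and 20.7 RPKM and a ratio of 1.20, and F2rl1, a protease-activated receptor, with 14.3 and 16.5 RPKM and a ratio of 1.16. Cxcl16, a membrane-bound chemokine, had 7.46 and 7.52 RPKM and a ratio of 1.01. The lymphotoxin subunit gene Ltb had 8.42 and 8.45 RPKM, and the membrane protease gene Mmp25 had 5.10 and 4.26 RPKM with a ratio of 0.834. Apart from Alox15, these genes stayed close to their untreated level.

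The epithelial members included junction proteins, splicing and transcription regulators and surface proteases. In an epithelium, claudins and occludin seal neighbouring cells, Crb3 sets apical polarity, and Grhl2 and Esrp1 maintain the epithelial pattern of transcription and splicing. Sfn, an adaptor of the 14-3-3 family found in epithelia, had 17.1 RPKM untreated and 26.9 RPKM treated, from 159 and 450 reads. Its ratio of 1.57, with an interval of 1.31 to 1.89, was the only one of the 17 epithelial members past 1.5-fold. Cldn7, a tight junction claudin, had 18.9 and 16.4 RPKM with a ratio of 0.868 and an interval of 0.720 to 1.05. Rbm35a, the older symbol of Esrp1, had 14 and 13 RPKM with a ratio of 0.935. Crb3 had 8.73 and 7.75 RPKM with a ratio of 0.889. These 3 were nominally lower, with intervals that hold 1. Ap1m2, an epithelial subunit of a sorting adaptor, had 8.41 and 6.46 RPKM with a ratio of 0.767 and an interval of 0.581 to 1.02. Prss8, a membrane-anchored serine protease, had 6.36 and 7.10 RPKM with a ratio of 1.12, and Cldn3 had 4.68 and 5.04 RPKM with a ratio of 1.08. The transcription factor Grhl2, at 3.52 and 3.37 RPKM, had a ratio of 0.959. In this group 11 members were higher and 6 lower.

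A list of epithelial junction genes gave 34 rows with values before and after Hey2 induction. Of all 14053 rows with both values, 6720 were higher and 7329 lower, with 891 of 14043 intervals above 1 and 768 below. Among the 9 members on the list, 3 were higher and 6 lower, with a median log2 ratio of -0.10 and 0 intervals off 1. Among the 25 rows that are no members, 21 were higher and 4 lower, with a median of 0.32, 10 intervals above 1 and 1 below. Among these, Krt18 went from 84.0 to 134 RPKM, a ratio of 1.59, and Krt8 from 52.8 to 69.0 RPKM, a ratio of 1.31, whereas Cdh1 was level at 92.1 and 92.2 RPKM. The junction members thus sat lower than the rest of their list, a difference with no test. These 3 genes are also the epithelial markers summed above, so their sums of 229 and 295 RPKM are not separate from the list.

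Of the 24 pluripotency and germ cell members, 10 were higher and 14 lower. Dppa4, a chromatin protein of pluripotent cells, had 9.59 and 9.42 RPKM with a ratio of 0.982. Dppa3, which protects DNA methylation in the early embryo, had 4.89 and 5.77 RPKM with a ratio of 1.18 and an interval of 0.706 to 2.03. Eras, a Ras-like gene that promotes growth of mouse embryonic stem cells, had 6.46 and 3.40 RPKM from 40 and 38 reads. Its ratio of 0.527, with an interval of 0.329 to 0.842, was the lowest of the group and the only one past 1.5-fold downward. Pou3f1, a POU factor of the post-implantation epiblast and of neural tissue, had 9.07 and 8.45 RPKM with a ratio of 0.932. Kit, the stem cell factor receptor, had 4.75 and 5.34 RPKM with a ratio of 1.12. The pluripotency markers went both ways: Pou5f1 had 98.1 and 82.8 RPKM, Nanog 37.3 and 45.9 RPKM and Esrrb 5.80 and 9.18 RPKM.

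The 3 pluripotency-associated long transcripts were also at steady levels or nominally higher. Platr10, listed as 2410007B07Rik, had 33.9 and 31.1 RPKM with a ratio of 0.918. Platr14, listed as 4930500J02Rik, had 13.5 and 15.0 RPKM with a ratio of 1.11. Platr22 had 7.98 and 10.7 RPKM with a ratio of 1.34 and an interval of 0.972 to 1.87. LOC435755, the Pou5f1-related pseudogene Pou5f1-rs4, had 9.53 and 7.51 RPKM. Its reads may belong to Pou5f1, whose level in the same libraries was higher.

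Meiosis genes among the members covered chromosome pairing, recombination and the piRNA pathway. Hormad2, which marks unpaired chromosome axes, had 3.76 and 5.67 RPKM with a ratio of 1.51 and an interval of 0.975 to 2.40. Six6os1, a component of the synaptonemal complex, had 17.6 and 15.1 RPKM with a ratio of 0.861. Ccnb1ip1, needed for crossing over, had 6.34 and 4.47 RPKM with a ratio of 0.705 and an interval of 0.488 to 1.02. These 3 intervals hold 1. The tudor-domain genes Tdrd5, at 3.41 and 3.60 RPKM, and Tdrd12, listed as 2410004F06Rik at 3.65 and 4.04 RPKM, had ratios of 1.06 and 1.11. The testis-expressed gene Tex21 had 11.8 and 10.7 RPKM with a ratio of 0.906, and Ooep, an oocyte protein listed as 2410146L05Rik, had 3.89 and 3.35 RPKM with a ratio of 0.862. Pramef12, of the PRAME family that is expressed in germ cells and early embryos, had 4.88 and 7.09 RPKM, and its ratio of 1.45 had an interval of 1.10 to 1.95. PRAME genes are many and alike, so its reads are uncertain.

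Of the 7 protein-coding members at least 1.5-fold lower after induction, 6 had patterning or signalling roles and the other was Eras. Of 22 patterning and signalling members 15 were lower and 7 higher, 6 were at least 1.5-fold lower and 0 at least 1.5-fold higher. The intervals of 4 of these 6 lay below 1. Of all 8404 rows with at least 3 RPKM in both libraries, 4361 were lower and 4040 higher. Among them 1.21% were at least 1.5-fold lower and 0.762% at least 1.5-fold higher. The group was formed after the ratios were seen, and its difference from these rows was not tested. Fst, a secreted inhibitor of activin, had 12.6 and 7.09 RPKM from 169 and 172 reads, giving a ratio of 0.564 with an interval of 0.454 to 0.702. Wnt8a, a Wnt ligand of the primitive streak, had 7.21 and 3.93 RPKM from 63 and 62 reads, giving a ratio of 0.545 with an interval of 0.378 to 0.787. Both were lower in the treated library, with intervals wholly below 1. Ramp2 and Ramp3 encode membrane partners that turn the calcitonin receptor-like receptor into a receptor for adrenomedullin. Ramp2 had 7.78 and 3.87 RPKM from 39 and 35 reads, giving a ratio of 0.497 with an interval of 0.306 to 0.806. Ramp3 had 6.55 and 3.63 RPKM from 46 reads in each, a ratio of 0.554 with an interval of 0.360 to 0.853. These were the 2 RAMP genes listed in the Hey2 line, and both were lower. Of their partners, Calcrl had 0.294 and 0.407 RPKM, Calcr 1.49 and 0.923 RPKM, and the ligand gene Adm 2.39 and 1.95 RPKM in the Hey2 line, while Ramp1 was blank. Adm was higher in the Hey1 line, with 12.2 and 7.82 RPKM, where both RAMP members were blank.

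The 3 retinoid members had lower values in the treated library. Cyp26a1, the enzyme that degrades retinoic acid, had 7.42 and 5.36 RPKM from 76 and 99 reads, giving a ratio of 0.722 with an interval of 0.530 to 0.987. Crabp1, a cellular carrier of retinoic acid, had 7.04 and 4.29 RPKM from 10 and 11 reads, giving a ratio of 0.610 with an interval of 0.235 to 1.60. Crabp2, a related carrier, had 5.80 and 3.64 RPKM from 15 and 17 reads, giving a ratio of 0.628 with an interval of 0.295 to 1.35. At the fewest possible reads, only the interval of Cyp26a1 left out 1 among these 3. At its recovered length Crabp1 in the treated library was under the Hey1-line limit. If its true length is a multiple of that, the limit is lower and Crabp1 may lie above it. Across 10 retinoic acid pathway rows listed in both Hey2-line libraries, a set picked after the members' values were seen, 3 were higher and 7 lower. Of all 14053 rows listed in both, 6720 were higher and 7329 lower. The receptor genes Rara, Rarb and Rarg, which are no members, had ratios of 1.13, 0.888 and 0.903.

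Transcription factors of the group went both ways. Zic2, a zinc finger factor of early neural and epiblast cells, had 22.2 and 16.1 RPKM from 126 and 165 reads, giving a ratio of 0.726 with an interval of 0.572 to 0.923. Vrtn, listed as 7420416P09Rik and known for its link to vertebral number in pigs, had 6.12 and 4.62 RPKM with a ratio of 0.755 and an interval of 0.597 to 0.957. Both were lower by less than 1.5-fold. Sox17, a factor of endoderm and endothelium, had 3.28 and 3.73 RPKM with a ratio of 1.14, and Tcf15, a bHLH factor of paraxial mesoderm, had 4.86 and 6.21 RPKM with a ratio of 1.28. Their intervals hold 1, as does that of the neuronal growth cone gene Gap43, at 7.49 and 9.11 RPKM with a ratio of 1.22. The endoderm markers did not move as a set between the lines: Foxa2, blank and 0.815 RPKM in the Hey1 line, had 4.33 and 3.26 RPKM in the Hey2 line, whereas Afp had 58.5 and 42.0 RPKM in the Hey1 line and 1.42 and 0.970 RPKM in the Hey2 line.

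The most abundant signalling member did not move. Trh, from 568 and 1057 reads, had a ratio of 1.03 with an interval of 0.930 to 1.14, the narrowest in its group. Pcsk1, a convertase that cuts prohormones, had 3.53 and 4.25 RPKM with a ratio of 1.21 and an interval of 0.858 to 1.72. Spink3, a trypsin inhibitor that RefSeq names Spink1, had 6.59 and 6.62 RPKM with a ratio of 1.00. Has2, which makes hyaluronan, had 4.06 and 3.72 RPKM with a ratio of 0.918, and the antisense gene Has2os had 3.94 and 3.97 RPKM. The sources used here do not say how strand was handled in counting, so reads of Has2 and Has2os may not be separate.

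The 16 enzyme and transport genes were the steadiest group, with 0 past 1.5-fold and 0 intervals off 1. Car4, from 789 and 1313 reads, had a ratio of 0.922 with an interval of 0.844 to 1.01. Sult2a2, a sulfotransferase of the steroid and bile acid family, had 24.6 and 25.2 RPKM with a ratio of 1.02. Enpp3, an ectonucleotidase, had 9.02 and 9.83 RPKM with a ratio of 1.09. The ratios of the group ran from 0.725 to 1.14.

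Among the members left ungrouped, 2 passed both criteria. Pdlim2, a PDZ and LIM domain protein that ties to the cytoskeleton, had 4.32 and 6.60 RPKM from 41 and 113 reads, giving a ratio of 1.53 with an interval of 1.06 to 2.24. 1190005I06Rik, an uncharacterised protein-coding gene, had 4.50 and 8.93 RPKM from 19 and 68 reads, giving a ratio of 1.98 with an interval of 1.18 to 3.49. Both were higher in the treated library. Of the long non-coding RNA genes, D7Ertd143e had 7.32 and 4.84 RPKM with a ratio of 0.660 and an interval of 0.440 to 0.995. The X-linked 2010204K13Rik had 6.20 and 3.72 RPKM with a ratio of 0.599 and an interval of 0.399 to 0.903. The host transcript of the miR-17 cluster, listed as 5033413D16Rik, had 8.03 and 5.44 RPKM with a ratio of 0.677 and an interval of 0.521 to 0.882. In this group 6 of 18 were higher and 12 lower.

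The 25 miRNA and snoRNA genes were 4 higher and 21 lower, with 10 at least 1.5-fold lower and a median of 9 and 10 reads. Listing began at 5 reads in both Hey2-line libraries, of 5.75 M untreated and 10.375 M treated reads. The floor in RPKM was therefore higher untreated. A short gene low in the untreated library was left out more easily than one low in the treated library. This favours lower ratios among short rows, and its part in these counts was not tested. Over all 158 rows under 300 bases with at least 3 RPKM the median log2 ratio was -0.11, with 51 higher and 107 lower. These rows include the 31 members under 300 bases, whose median was -0.37, so they are no separate background. Mir703 had 158 RPKM untreated and 83.1 RPKM treated from 99 and 94 reads, giving a ratio of 0.526 with an interval of 0.393 to 0.705. Snord22 had 42.8 and 9.94 RPKM from 31 and 13 reads, and its ratio of 0.232, with an interval of 0.112 to 0.457, was the lowest of all 8404 rows. Snord22 in the treated library was under the Hey1-line limit. The other abundant small RNA genes were Mir297-1 at 135 and 120 RPKM, Snord64 at 87.0 and 98.5 RPKM, AF357359 at 104 and 80.3 RPKM and Snord96a at 33.9 and 50.1 RPKM, and their intervals hold 1. The copies Mir1906-1 and Mir1906-2 carry identical values of 50.0 and 33.7 RPKM, so they are 1 observation.

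miR-293 and miR-295 belong to the miR-290 cluster, which is abundant in mouse embryonic stem cells, and miR-363 belongs to the miR-106a cluster of the X chromosome. Their mature sequences from RefSeq (GRCm38.p6) are shown with the seed, bases 2 to 8, in capitals, because the seed sets which transcripts a miRNA can pair with.
mmu-miR-293-3p, chr7:3220390-3220411, plus strand: aGUGCCGCagaguuuguagugu
mmu-miR-295-3p, chr7:3220815-3220837, plus strand: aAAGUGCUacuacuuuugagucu
mmu-miR-363-3p, chrX:52741697-52741718, minus strand: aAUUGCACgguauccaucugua
The seeds of these 3 differ from each other. RefSeq gave 14 mature sequences for 11 miRNA genes among the members, with 13 distinct seeds, and 1 seed was shared by more than 1 gene. Mir293 had 10.9 and 8.43 RPKM from 5 and 7 reads, Mir295 had 22.7 and 14 RPKM from 9 and 10 reads, and Mir363 had 18.6 and 6.43 RPKM from 8 and 5 reads. Mir293 was under the Hey1-line limit in both pairs, so no difference between the lines is shown for it. Mir295 and Mir363 were under it in the treated pair and only 1.16-fold and 1.03-fold above it untreated. The values count reads over the hairpin gene in a library of total RNA and are no measure of the mature miRNA.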

How the data were processed

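The 4 RNA libraries of the series, 1 per group, were used, and the 8 chromatin samples were not analysed here. Per the labels' protocols, total RNA was purified by column and libraries were made with a NEBNext kit. The submitters' processing notes name Bowtie 1.0, DESeq and the build mm9, without saying which step each served. The authors deposited 1 table of RPKM values per gene with blanks, read here as deposited, and fold columns as a score that was not used. The sources used here do not give strand handling or gene models. Depth was recovered from the RPKM values: the smallest divisor, on a grid of 0.025 M reads, that made most miRNA hairpin genes whole reads at their RefSeq length, within 0.0001 (10 of 11, 12 of 13, 20 of 21 and 30 of 31 genes). For other rows the smallest length up to 25000 bases giving whole reads in both Hey2-line libraries, within 3e-06, was used. It was found for 14043 of 14053 rows, 99.9%. The true length can be a multiple of it: with all 4 libraries, 13.6% of rows came out longer. Reads would then be more, intervals narrower and Hey1-line limits lower. The recovery was checked on simulated data, where it gave exact reads for most genes but not for all, so reads, intervals and limits of a single gene can be off as described.

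Ratios are of RPKM without a pseudocount, and intervals are exact conditional binomial ones that cover counting error only. With 1 library per group no test was run. Name exclusions used the deposited names, and 41 members have none, of which 26 carry an excluded prefix in RefSeq. Members were matched to RefSeq by Entrez ID (187 of 188). Members with values were named by a rule: past 1.5-fold with an interval off 1, among the 10 highest, among the 4 highest of a gene list or name family, or at the threshold; other names illustrate the functional groups and were picked after their values were seen. Members and lists were chosen with earlier results of these data known. The functional groups, the retinoid, RAMP and guanylate-binding sets, the interferon and STAT motifs, the read-matched background and 3 alternatives were chosen after seeing the data, and 1 name family was dropped when its pattern caught H2-Q genes. Python 3.11.15, NumPy 2.4.6, pandas 2.3.3, SciPy 1.17.1 and Matplotlib 3.10.9 were used.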

Additional observations from a re-analysis of the deposited data

How the results depend on the processing

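The counts of members at least 1.5-fold higher (8) or lower (21) depend on the limits set. With a threshold of 5 RPKM (99 members) they were 3 and 11, and with 2 RPKM (324 members) 16 were higher. With at least 50 reads in each Hey2-line library 3 were higher and 3 lower, and among the 78 members with a Hey1-line limit under 1 RPKM 4 were higher and 3 lower. A limit at a ratio of 5 to 4 gave 21 higher and 46 lower, and a fold of 2 gave 1 and 7. Alternatives added after seeing the data changed the lower count. It was 11 when rows without a deposited name were also excluded by RefSeq symbol. Without miRNA and snoRNA genes it was 11, and for members of at least 300 bases it was 9. Without the short rows the higher and lower counts lie closer together. A pseudocount of 1 RPKM gave 6 higher and 17 lower, and took Pdlim2 to 1.43 and D7Ertd143e to 0.701, within 1.5-fold. For the 15 members past both criteria, 45 of 45 alternative ratios stayed within the counting interval, and scaling by upper quartile or by median ratio changed the ratio by factors of 0.997 and 0.991. A pseudocount on both values, or scaling by such factors, cannot turn a ratio past 1.5-fold, so the direction of these 15 was not tested. The balance of the counts did change. Lower members outnumbered higher ones among all members, but not among members with a Hey1-line limit under 1 RPKM or with at least 50 reads. No paired analysis was possible because each group holds 1 library. The median member rests on 38.5 untreated reads, and variation between cultures was not measured.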
